A study of Mus musculus with 11 samples.

Results

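The genes described here are 51 that copy DNA or supply its building blocks, chosen by name for their known roles: licensing of origins, the replicative helicase, polymerases, the sliding clamp, deoxynucleotide synthesis and chromatin assembly behind the fork. All 51 symbols were found among the 53801 genes of each deposited table, 27295 of which were above 0 in at least 1 library. RNA from cultured mouse neural stem cells (NSCs), taken from the embryonic hippocampus of C57BL/6 mice, was sequenced in 11 libraries. Treatment lasted 7 days, with 4HBP at 1 µM or the vehicle EtOH (the controls). In proliferation medium, with EGF and bFGF at 20 ng/ml each and 1% B27, there were 3 libraries with 4HBP and 3 controls. In differentiation medium, without EGF and bFGF and with 2% B27, there were 3 with 4HBP and 2 controls. The paper names the compound 4-hydroxybenzophenone, while the sample labels name it 4-hydroxybenzoic acid. The labels do not say whether replicates came from separate animals or cultures, so p-values measure the spread between these libraries, which may be technical.

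A cell replicates its DNA once per division, in S phase. The origin recognition complex marks start sites, Cdc6 and Cdt1 load the ring-shaped MCM helicase on them, and geminin (Gmnn) holds Cdt1 back so that origins are not licensed again. Mcm10, Cdc45 and the GINS complex turn the loaded ring into a working helicase, primase and polymerase alpha lay down primers, and polymerases delta and epsilon extend them while held by the PCNA clamp. Many of these genes are switched on together by E2F transcription factors as a cell enters S phase, and dividing NSCs carry more of their RNA than cells that have left the cycle.

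Library totals ran from 20840839 to 21129722 expected counts in proliferation medium and from 20822921 to 23438463 with differentiation medium. At 3 counts, the smallest amount taken as detectable, a gene has 0.142 CPM (counts scaled to the library total) in the first 4HBP library. All 51 genes passed the filter on low counts in each of the 3 fits. Their lowest values were those of Orc1, with 11 to 18 counts in the differentiation libraries, a depth at which counting error is large. All 10 NSC markers examined were above 3 counts in every group, and their CPM summed to 4533 to 5334 in proliferation medium and 1839 to 1884 in the other. Libraries varied more in proliferation medium, where edgeR's biological coefficient of variation was 0.117 against 0.0368 in differentiation medium. One library stood apart: 4HBP replicate 3 in proliferation medium was the lowest of the 6 proliferation libraries for 45 of the 51 genes, and control replicate 3 was the highest for 38. In bulk libraries, fewer cells in S phase and less RNA per cell cannot be told apart.

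Promoter sequences can hold letters that match the sites of E2F factors, which are known to switch on many of these genes. They are given for 5 genes as examples with and without a match. They come from RefSeq (GRCm38.p6, the build of the deposited tables) and run from 250 bases before to 50 bases after the start given there, 5′ to 3′ on the strand of the gene. The RefSeq start can differ from that of the GENCODE gene. The GENCODE gene of Cdc6 starts at 98907801, so the Cdc6 sequence lies wholly inside it. The sequences of Dut, Timeless and Mcm7 also lie inside their GENCODE genes. Capitals mark matches to the E2F letters TTTCCCGC, TTTCGCGC, TTTGCCGC or TTTGGCGC on either strand, and matches may overlap. Cdc6 (chr11:98907901-98908200, plus strand), Mcm6 (chr1:128359656-128359955, minus strand) and Clspn (chr4:126556730-126557029, plus strand) hold such a match and fell strongly in differentiation medium. Orc3 (chr4:34614893-34615192, minus strand) holds a match and fell little, and Tk1 (chr11:117825965-117826264, minus strand) holds none and had the largest fall.
Cdc6: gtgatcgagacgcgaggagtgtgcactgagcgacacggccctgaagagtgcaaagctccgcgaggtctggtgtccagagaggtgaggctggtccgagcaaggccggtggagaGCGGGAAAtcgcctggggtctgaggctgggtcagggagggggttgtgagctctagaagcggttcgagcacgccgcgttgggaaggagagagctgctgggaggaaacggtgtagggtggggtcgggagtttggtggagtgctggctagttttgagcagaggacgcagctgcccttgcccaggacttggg
Mcm6: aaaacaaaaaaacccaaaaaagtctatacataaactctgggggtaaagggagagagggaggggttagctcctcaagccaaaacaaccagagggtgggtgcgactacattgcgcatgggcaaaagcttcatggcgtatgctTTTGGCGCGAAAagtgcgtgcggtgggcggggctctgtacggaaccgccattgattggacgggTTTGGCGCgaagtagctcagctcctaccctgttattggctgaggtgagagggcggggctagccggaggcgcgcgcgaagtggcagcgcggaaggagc
Clspn: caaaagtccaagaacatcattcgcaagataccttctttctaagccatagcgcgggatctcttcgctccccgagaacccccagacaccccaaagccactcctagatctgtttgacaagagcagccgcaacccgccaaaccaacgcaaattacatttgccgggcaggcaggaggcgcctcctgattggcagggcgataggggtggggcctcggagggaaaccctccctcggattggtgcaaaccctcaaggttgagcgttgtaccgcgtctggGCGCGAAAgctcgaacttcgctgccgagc
Orc3: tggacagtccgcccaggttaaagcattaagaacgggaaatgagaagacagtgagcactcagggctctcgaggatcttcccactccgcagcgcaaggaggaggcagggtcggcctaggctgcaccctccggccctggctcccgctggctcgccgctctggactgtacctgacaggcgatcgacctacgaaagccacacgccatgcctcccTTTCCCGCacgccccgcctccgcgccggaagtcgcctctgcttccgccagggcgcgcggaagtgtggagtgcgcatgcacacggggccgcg
Tk1: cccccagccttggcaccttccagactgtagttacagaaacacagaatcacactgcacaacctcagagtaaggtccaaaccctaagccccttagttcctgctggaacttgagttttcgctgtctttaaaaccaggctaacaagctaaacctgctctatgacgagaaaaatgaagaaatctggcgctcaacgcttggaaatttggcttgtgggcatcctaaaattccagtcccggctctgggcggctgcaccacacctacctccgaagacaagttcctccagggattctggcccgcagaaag

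A promoter sequence was found for 42 of the 51 genes, and 16 of the 42 (38.1%) held an E2F match in at least 1 promoter. Among all genes with a promoter sequence, the share was 2.6%. Counted by promoter, it was 32.0% of the 50 promoters of these genes and 3.63% of the 14451 promoters of other genes tested between the media. Mcm6 held 3 matches, at positions -110, -106 and -47 from the RefSeq start, and the first pair overlap. The letters CCAAT were in 59.5% of the 42 genes against 41.1% of all genes, and TTTGAA or TTCGAA, the cell cycle homology region, in 16.7% against 21.7%. Counted by promoter, the latter was in 7 of the 50 promoters of these genes and in 13.8% of those of other genes tested, and CCAAT in 54.0% and 37.8%. A match describes the letters and not the binding of a factor.

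The first comparison asks how the genes differed between media in control cells. In differentiation medium 47 of the 51 (92.2%) were lower and none was higher, by edgeR's quasi-likelihood test at the adjusted p threshold of 0.05. Of the 15920 genes in the test 61.4% were called, 30.6% lower and 30.8% higher. For 48 of the 51 genes both differentiation controls were below all proliferation controls (32.4% of all genes), and for 2, Orc5 and Rpa1, above (44.2% of all genes). The median log2 fold change of the 51 genes was -1.73, beside 0.03 over all genes tested. The CPM of the 51 genes summed to 2042 ± 175 (SD, n = 3) in proliferation controls and to 896 ± 3.19 (SD, n = 2) in differentiation controls, a ratio of 2.28. The libraries did not overlap, and 0.2, the exact permutation p here, is the smallest that this two-sided test gives for 3 against 2 libraries. Markers of some other cells moved with the medium. The 8 oligodendrocyte lineage markers summed to between 3241 and 3916 CPM in proliferation controls and to between 7743 and 8178 CPM in differentiation controls. All 8 were above 3 counts in both, and 5 were called higher (62.5%, near the 61.4% of all genes called). The 10 neuron markers summed to 1049 to 1131 CPM in proliferation controls and 989 to 1010 CPM in differentiation controls. Although this sum was lower, 4 of the 10 neuron markers were called higher and 2 lower. Their log2 fold changes were above 0 for 6 and below 0 for 4, with a median of 0.445. The 8 astrocyte markers summed to 7744 to 8702 CPM in proliferation controls and 9488 to 9526 CPM in differentiation controls. Of these, 5 were called higher and 3 lower. The 7 endothelium and pericyte markers summed to 4.01 to 5.52 CPM in proliferation controls and 30.7 to 33.4 CPM in differentiation controls. Of the 3 that were tested, 1 was called higher and 1 lower (66.7%). The part of such cells in the difference was not tested.

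**Figure D1:**
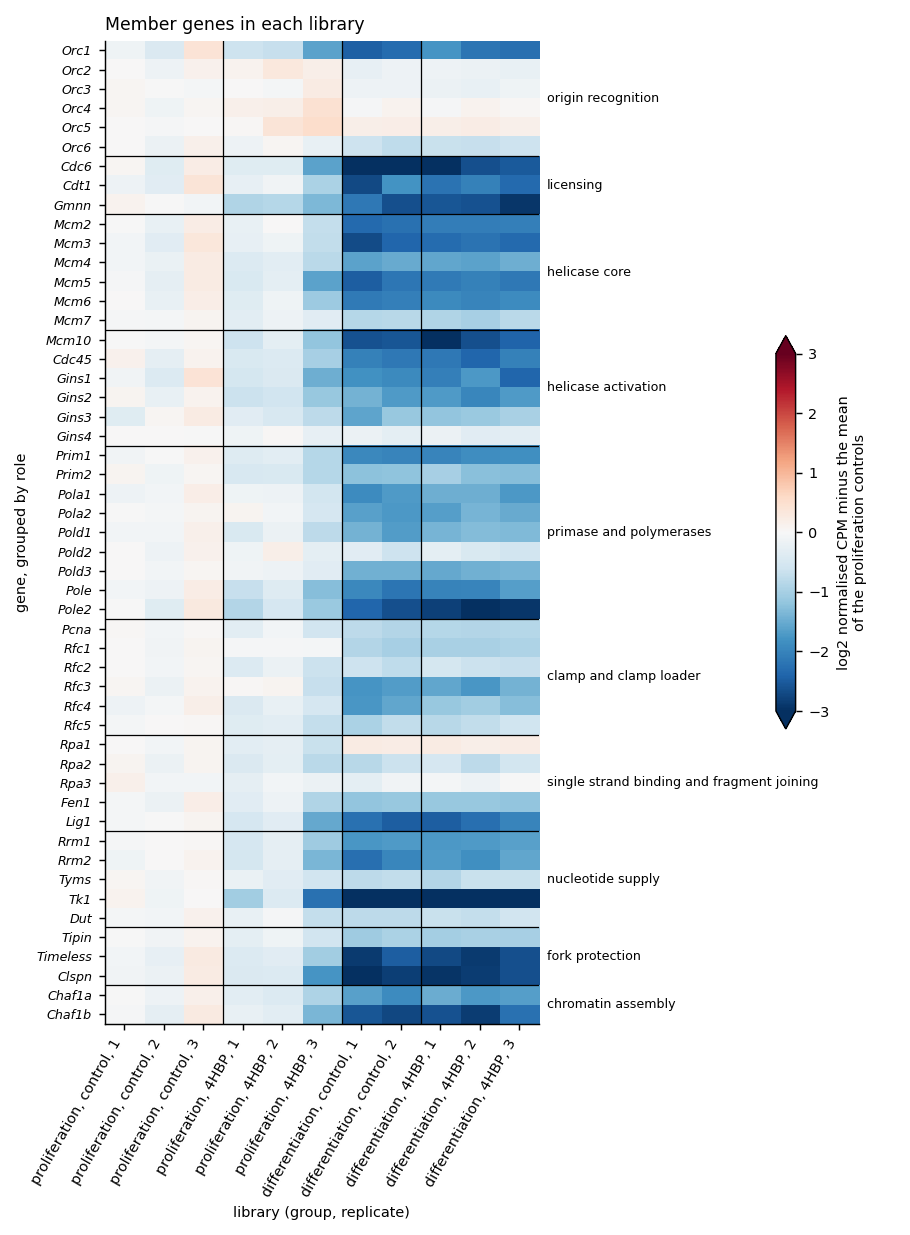
Log2 ratio of the CPM of each of the 51 genes in each of the 11 libraries to its mean CPM in the proliferation controls. CPM are scaled to library totals only, genes are grouped by role and colours end at -3 and 3. The differentiation libraries are lower than the proliferation controls for most genes, and 4HBP replicate 3 in proliferation medium is the lowest of its medium for 45 genes.

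Of the 6 subunits that recognise origins 4 fell, and Orc1 fell most. Orc1, the largest subunit of the complex, was at 2.53, 2.05 and 3.68 CPM in proliferation controls and at 0.502 and 0.555 CPM in differentiation controls. These groups did not overlap, and Orc1 fell 5.48-fold (log2 fold change -2.45 ± 0.40 SE, adjusted p = 1.56e-04). Orc2 and Orc3 fell by 0.29 and 0.24 on the log2 scale (adjusted p = 0.0129 and 0.0158), Orc4 and Orc5 had changes of -0.05 and 0.11 that missed the threshold, and Orc6 fell by 0.79. On the TPM scale, which is per length and so allows genes to be compared, the mean of Orc2 to Orc5 was 15.0 ± 2.22 times the level of Orc1 in proliferation controls (SD, n = 3) and 121 ± 4.31 times in differentiation controls (n = 2). The exact permutation p of this ratio was 0.2, the smallest possible. Orc1 was the least abundant of the 51 genes by TPM in all 4 groups.

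All 3 licensing genes fell. The level of Cdc6, which recruits the helicase to the origin, was 16.5, 12.2 and 18.5 CPM in proliferation controls and 1.78 and 1.62 CPM in differentiation controls. That is a 9.83-fold fall without overlap (log2 fold change -3.30 ± 0.40, edgeR adjusted p = 1.12e-05). Cdt1 and Gmnn, the loader and its inhibitor, fell by 2.26 and 2.46 on the log2 scale. In TPM, Cdt1 was 0.554 ± 0.224 times Gmnn in proliferation controls (SD, n = 3) and 0.785 ± 0.598 times in differentiation controls (n = 2). These ratios overlapped (exact permutation p = 0.8).

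The 6 helicase subunits Mcm2 to Mcm7 form 1 ring with a single copy of each, and all 6 fell, but not equally. Mcm3 was at 63.6, 52.7 and 85.5 CPM in proliferation controls and at 10.4 and 12.8 CPM in differentiation controls. It fell 6.14-fold with no overlap (-2.62 ± 0.23, adjusted p = 7.17e-07). The fall was smallest for Mcm7, which also hosts a cluster of microRNAs in an intron, at -0.93 ± 0.08 (adjusted p = 8.75e-07). In TPM, Mcm7 was 2.07 ± 0.261 times the mean of Mcm2 to Mcm6 in proliferation controls (SD, n = 3) and 5.03 ± 0.58 times in differentiation controls (n = 2, exact permutation p = 0.2). Mcm7 was the highest of the 6 by mean TPM in all 4 groups.

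**Figure D2:**
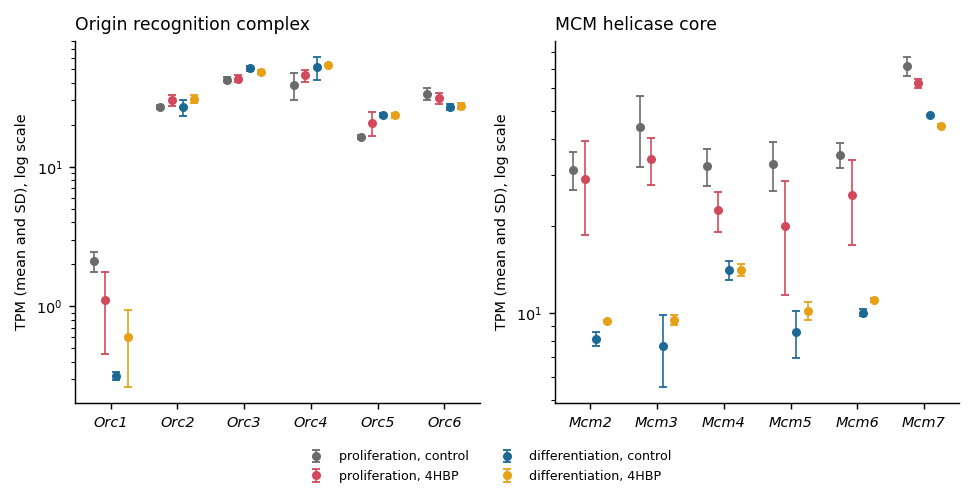
Mean TPM with SD of Orc1 to Orc6 (left) and Mcm2 to Mcm7 (right) in the 4 groups, on a log scale, with 3 libraries per group and 2 for differentiation controls. Orc1 lies far below the other subunits in every group, and Mcm7 keeps a higher level in differentiation medium than Mcm2 to Mcm6.

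Among the genes that activate the helicase, Mcm10 fell most. It was at 20.2, 19.4 and 21.2 CPM in proliferation controls and at 3.33 and 3.41 CPM in differentiation controls, a 6.37-fold fall without overlap (-2.67 ± 0.25, adjusted p = 1.04e-06). Cdc45 fell by 2.16 on the log2 scale. The 4 GINS subunits form 1 complex and again moved unequally: Gins1, Gins2 and Gins3 fell by 1.96, 1.65 and 1.42, while Gins4 fell by 0.32 (adjusted p = 0.0135). In TPM, Gins4 was 2.64 ± 0.283 times the mean of the other three in proliferation controls (SD, n = 3) and 6.17 ± 0.297 times in differentiation controls (n = 2, exact permutation p = 0.2).

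All 9 primase and polymerase genes fell. Pole2, the second subunit of polymerase epsilon, was at 6.89, 5.37 and 8.52 CPM in proliferation controls and at 1.32 and 1.12 CPM in differentiation controls. Its fall was 6.03-fold, with no overlap (-2.59 ± 0.27, adjusted p = 2.91e-06), and the catalytic subunit Pole fell by 2.14. The smallest fall of the group was that of Pold2, an accessory subunit of polymerase delta, at -0.57 ± 0.14 (adjusted p = 0.00378). The primase subunits kept less even levels in differentiation medium: in TPM, Prim1, the catalytic subunit, was 0.794 ± 0.0765 times Prim2 in proliferation controls (SD, n = 3) and 0.492 ± 0.0163 times in differentiation controls (n = 2, exact permutation p = 0.2).

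The clamp Pcna was the most abundant of the 51 genes in all 4 groups, at 145 ± 8.37 TPM in proliferation controls (SD, n = 3) and 86.4 ± 3.86 TPM in differentiation controls (SD, n = 2). It fell by 0.92 on the log2 scale. The 5 subunits of the clamp loader fell by between 0.78 (Rfc2) and 1.81 (Rfc3). Rfc3 was at 22.9, 19.2 and 23.4 CPM in proliferation controls and at 6.39 and 6.87 CPM in differentiation controls, without overlap (3.50-fold lower, adjusted p = 1.28e-05).

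Of the 3 single strand binding proteins, 1 fell. Rpa1, the large subunit of replication protein A, was at 92.6, 86.0 and 96.2 CPM in proliferation controls and at 108 and 107 CPM in differentiation controls. Differentiation controls were slightly higher without overlap, but the log2 fold change of 0.14 ± 0.11 missed the threshold (adjusted p = 0.269). Rpa2 fell by 0.82, and Rpa3 missed the threshold at -0.28 ± 0.13 (adjusted p = 0.0837). Of the enzymes that finish the lagging strand, the ligase Lig1 was at 69.0, 71.0 and 76.4 CPM in proliferation controls and at 15.4 and 13.1 CPM in differentiation controls. It fell 5.39-fold without overlap (-2.43 ± 0.29, adjusted p = 1.00e-05), and the flap nuclease Fen1 fell by 1.25.

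All 5 nucleotide supply genes fell, led by Tk1, the thymidine kinase of the salvage route. Tk1 was at 13.2, 11.2 and 12.2 CPM in proliferation controls and at 1.14 and 1.32 CPM in differentiation controls. This 10.4-fold difference was the largest of the 51 (log2 fold change -3.39 ± 0.43, adjusted p = 1.96e-05). Rrm1 and Rrm2, the subunits of ribonucleotide reductase, fell by 1.82 and 2.18. In TPM, Rrm1 was 1.53 ± 0.139 times Rrm2 in proliferation controls (SD, n = 3) and 1.69 ± 0.131 times in differentiation controls (n = 2). These ratios overlapped (exact permutation p = 0.4). Tyms and Dut, which make and guard the thymidylate pool, fell by 0.86 and 0.88. Tyms and Orc3 had expected counts that were not whole in all 11 libraries, so some of their fragments were shared out between features and their levels are less certain.

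At the fork, Clspn (claspin, which relays the checkpoint signal) was at 44.3, 42.4 and 56.4 CPM in proliferation controls and at 5.66 and 6.70 CPM in differentiation controls. It fell 8.18-fold without overlap (-3.03 ± 0.35, adjusted p = 8.66e-06), its partner Timeless fell by 2.75 and Tipin by 1.10. The chromatin assembly subunit Chaf1b was at 19.3, 16.4 and 23.9 CPM in proliferation controls and at 3.33 and 2.99 CPM in differentiation controls. It also fell without overlap (-2.74 ± 0.33, adjusted p = 1.22e-05), and Chaf1a fell by 1.83.

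**Figure D3:**
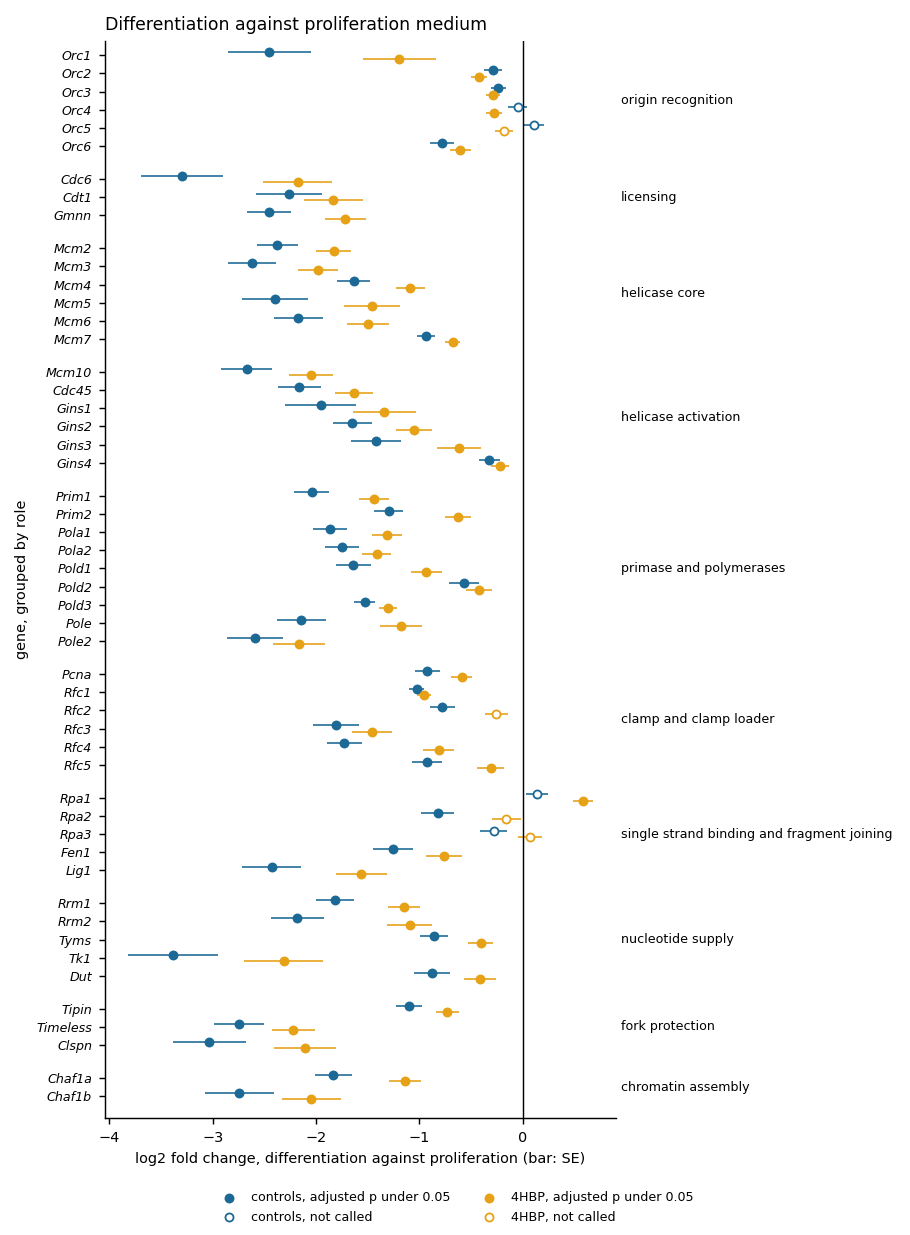
Log2 fold change of each of the 51 genes in differentiation against proliferation medium, with its SE, in controls (blue) and with 4HBP (orange), where filled points have an adjusted p under 0.05 by edgeR. In controls the values run from -3.39 (Tk1) to 0.14 (Rpa1), and with 4HBP from -2.31 (Tk1) to 0.58 (Rpa1).

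The genes with an E2F match had a median log2 fold change of -2.22 between media in controls (16 genes, all 16 lower), and those with a promoter sequence but no match had -1.14 (26 genes, 22 lower). The ranges overlapped widely, from -3.30 to -0.24 with a match and from -3.39 to 0.14 without. The split was not tested.

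The same comparison was made between the media with 4HBP. In differentiation medium, 46 of the 51 genes were lower and 1 was higher than in proliferation medium by the same test, where 67.2% of all genes were called, 33.8% lower and 33.3% higher. The groups did not overlap for 43 genes that were lower (33.3% of all genes) and for 1 that was higher (37.6% of all genes). The median log2 fold change was -1.10 (all genes 0.01), and the summed CPM was 1.72 times as high in proliferation medium (1586 ± 272 against 924 ± 16.2, SD, n = 3 each, exact permutation p = 0.1, the smallest possible). Rpa1 was the gene that was higher. It was at 73.6, 75.5 and 58.1 CPM in proliferation medium and at 110, 103 and 107 CPM in differentiation medium. These groups did not overlap (1.5-fold, log2 fold change 0.58 ± 0.10, adjusted p = 1.36e-04), and Rpa1, at chr11:75298166-75348324 on the minus strand, was higher under each of the 18 alternatives tried.

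The second comparison asks what 4HBP did in proliferation medium. Of the 51 genes, 3 were lower with 4HBP and none was higher (edgeR, adjusted p under 0.05). This is 5.88% of the genes lower, against 3.69% of all 14449 genes tested (7.43% called in all, 3.74% higher). The count of called genes was therefore near the background, whereas the shift was broad: 47 of 51 log2 fold changes were below 0, the exceptions being Orc2 to Orc5 (Orc3, at 0.04, turned to -0.02 without 4HBP replicate 3), and the median was -0.48 beside 0.00138 over all genes. For 29 genes (56.9%) every 4HBP library was below every control, against 12.6% of all genes. For 2 genes, Orc4 and Orc5, every 4HBP library was above every control (3.92%, against 19.3% of all genes), and for 20 the groups overlapped. An unadjusted p under 0.05 was reached by 36 genes (70.6%, against 25.1% of all genes).

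Gmnn, the inhibitor of licensing (ENSMUSG00000006715.11, chr13:24751845-24761923, minus strand), showed the clearest difference. It was at 5.25, 5.43 and 3.89 CPM with 4HBP and at 10.5, 9.71 and 9.31 CPM in controls. No 4HBP library reached the lowest control, and Gmnn fell 2.07-fold (log2 fold change -1.05 ± 0.17, adjusted p = 0.0109). Leaving out control replicate 1 or 2 ended the call (adjusted p = 0.0675 and 0.0576), and without 4HBP replicate 3 it held at -0.89 (adjusted p = 0.00649).

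Gins2, a subunit of the GINS complex (chr8:120578633-120589304, minus strand), was at 11.03, 11.57 and 7.87 CPM with 4HBP and at 18.4, 14.7 and 18.7 CPM in controls. It fell 1.74-fold without overlap (-0.80 ± 0.17, adjusted p = 0.0297). Prim2, the regulatory subunit of primase (chr1:33453810-33669795, minus strand), was at 25.1, 25.7 and 19.4 CPM with 4HBP and at 36.9, 31.9 and 36.4 CPM in controls. This was a 1.53-fold fall, again without overlap (-0.61 ± 0.13, adjusted p = 0.0272). Both calls held without 4HBP replicate 3 (adjusted p = 0.0211 for Gins2 and 0.0157 for Prim2), but each was lost without 4HBP replicate 2 or any 1 of the 3 controls. The adjusted p then lay between 0.0553 and 0.119 for Gins2 and between 0.0555 and 0.111 for Prim2.

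Next in order of p came Rpa1 and Pole2, which did not pass. With 4HBP, Rpa1 was at the 3 levels given above, all below its controls (log2 fold change -0.44 ± 0.12, adjusted p = 0.0515). Pole2 was at 3.77, 4.85 and 3.21 CPM with 4HBP, below all its controls (-0.84 ± 0.22, adjusted p = 0.0537). The largest change by size was that of Tk1, at 5.92, 9.14 and 2.59 CPM with 4HBP (-1.07 ± 0.35, adjusted p = 0.0938), where replicate 3 lay far below the others.

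By role, the log2 fold changes of the helicase core ran from -0.70 (Mcm5) to -0.30 (Mcm7), those of helicase activation from -0.80 to -0.13 (Gins4), and those of the primase and polymerases from -0.84 to -0.09 (Pold2). The nucleotide supply genes ran from -1.08 to -0.32 (Dut). The origin recognition genes had a median of 0.11 and held all 4 positive values, with Orc5 at 23.7, 30.3 and 33.4 CPM with 4HBP and at 23.5, 22.7 and 23.6 CPM in controls (0.29 ± 0.12, adjusted p = 0.16). Orc1 was again apart from its partners, at 1.80, 1.71 and 0.912 CPM with 4HBP (-0.92 ± 0.34, adjusted p = 0.128). In TPM the mean of Orc2 to Orc5 was 18.2, 30.9 and 86.3 times Orc1 in the 4HBP libraries and 17.6, 14.2 and 13.4 times in controls. The groups did not overlap (exact permutation p = 0.1, the smallest possible), but most of the difference lay in replicate 3.

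**Figure D4:**
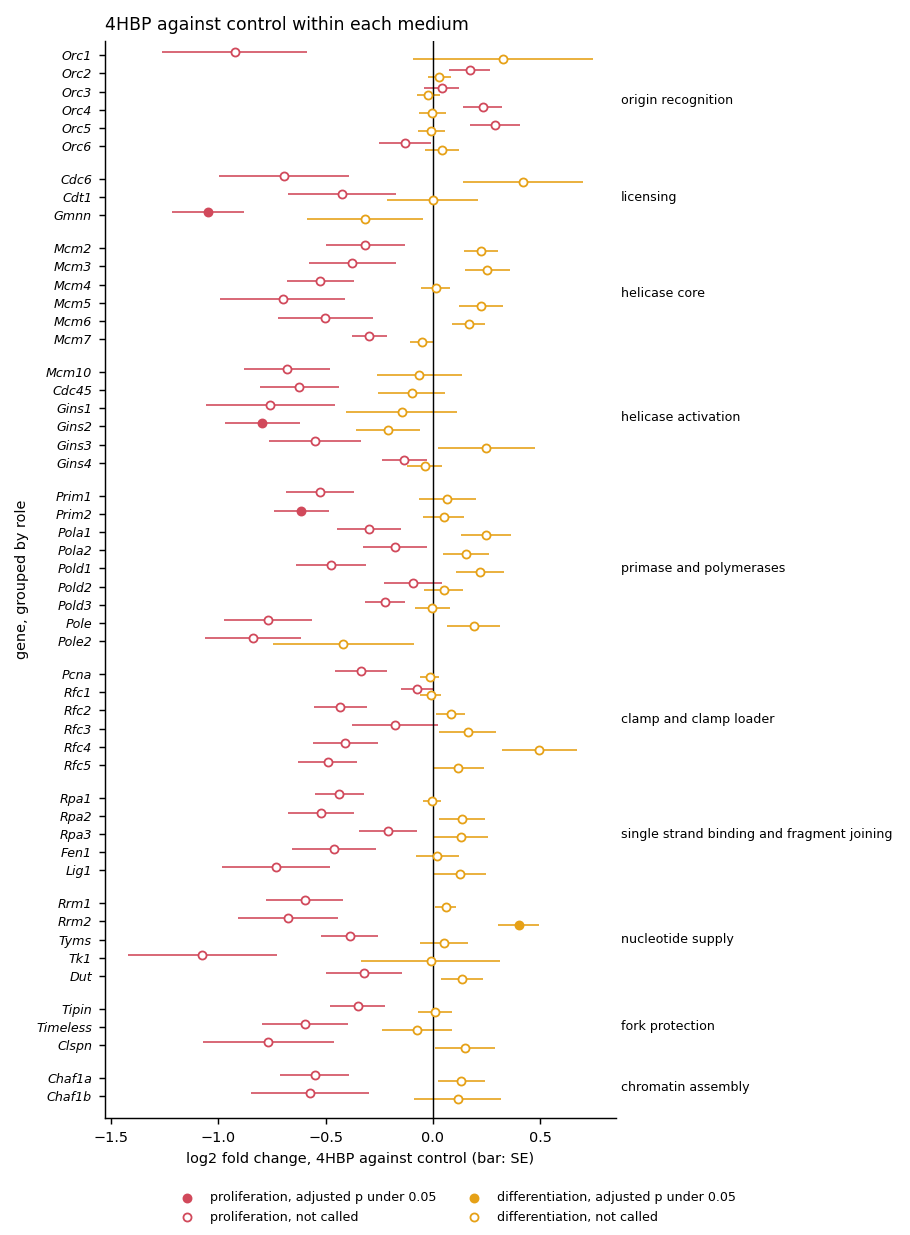
Log2 fold change with 4HBP of each of the 51 genes, with its SE, in proliferation medium (red) and differentiation medium (orange), where filled points have an adjusted p under 0.05 by edgeR. In proliferation medium 47 of the 51 points lie below 0, and in differentiation medium 18 do.

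The number of genes called differed between fits. With all 11 libraries in 1 fit, 24 genes were lower and 1, Orc5, was higher (47.1% lower, against 8.17% of all genes). DESeq2 called 18 lower (35.3%, against 5.68% of all genes), and edgeR without the filter on low counts 21 (41.2%, against 3.27%). Without 4HBP replicate 3, 10 genes were lower: Gins2, Gmnn, Lig1, Mcm10, Pole, Prim2, Rpa1, Rrm1, Rrm2 and Tk1 (19.6%, against 4.87% of all genes), and the median was then -0.30. The thresholds of the study were an unadjusted limma p of 0.05 and a log2 fold change beyond 0.58 in size. With these and no filter on low counts, 10 genes (19.6%) were lower, against 1.3% of 23759 genes. That background and the 3.27% above include genes that the filter removes, whereas all 51 genes passed it. The summed CPM was 1654, 1818 and 1286 with 4HBP and 2017, 1881 and 2228 in controls, a difference without overlap (1586 ± 272 against 2042 ± 175, SD, n = 3 each, exact permutation p = 0.1, the smallest that 3 against 3 allow).

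Some astrocyte markers were also lower with 4HBP in proliferation medium. The 8 astrocyte markers summed to between 6126 and 7067 CPM with 4HBP and to between 7744 and 8702 CPM in controls. Of the 8, 4 fell (Gfap, Aqp4, Gjb6 and Aldoc) and none rose. Among all genes tested, 3.69% were called lower and 3.74% higher. The 8 oligodendrocyte lineage markers summed to between 2176 and 3431 CPM with 4HBP and to between 3241 and 3916 CPM in controls, which overlapped, with none called. NSC markers overlapped in their sums (4633 to 5069 and 4533 to 5334 CPM), with 1 of 10 lower (10.0%, against 3.69% of all genes). The 10 neuron markers summed to 1023 to 1039 CPM with 4HBP and 1049 to 1131 CPM in controls. These sums did not overlap, and none of the 10 was called. Microglia markers stayed between 1.49 and 3.82 CPM in sum. The part of these cells in the result was not tested.

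The third comparison asks the same of differentiation medium. There 1 of the 51 genes was higher with 4HBP and none was lower (1.96%, against 2.55% of all 15484 genes called, 1.26% higher). The median log2 fold change was 0.05 (all genes -0.00105), with 18 values below 0 and 33 above. For 9 genes (17.6%) every 4HBP library was above both controls, against 15.0% of all genes, and for 1, Pole2, every one was below, against 18.0% of all genes. The first share was near that of all genes and the second lay below it. An unadjusted p under 0.05 was reached by 6 genes (11.8%, against 15.9% of all genes).

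The gene called was Rrm2, the small subunit of ribonucleotide reductase (ENSMUSG00000020649.11, chr12:24708241-24714146, plus strand). It was at 24.5, 22.5 and 27.2 CPM with 4HBP and at 16.8 and 20.7 CPM in controls. It rose 1.32-fold without overlap (0.40 ± 0.10, adjusted p = 0.0389). The call was lost without 4HBP replicate 1 or 3 or control replicate 1 (adjusted p = 0.0763, 0.103 and 0.419), and in a fit of all 11 libraries it had an adjusted p of 1.00. In proliferation medium Rrm2 was at 55.7, 66.5 and 31.2 CPM with 4HBP and at 73.4, 81.0 and 86.5 CPM in controls, lower with 4HBP without overlap but not called (-0.68 ± 0.23, adjusted p = 0.112).

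The next 4 genes by p all had higher 4HBP values without overlap and did not pass the threshold. Rfc4, a clamp loader subunit, was at 4.34, 4.57 and 3.89 CPM with 4HBP and at 2.83 and 3.24 CPM in controls (adjusted p = 0.163). Mcm2 was at 17.66, 17.81 and 18.01 CPM with 4HBP and at 14.8 and 15.9 CPM in controls (0.22 ± 0.08, adjusted p = 0.172). Mcm3 was at 13.5, 14.6 and 13.3 CPM with 4HBP against 10.4 and 12.8 CPM, and Mcm5 at 14.3, 15.1 and 14.1 CPM against 11.2 and 13.7 CPM (adjusted p = 0.246 and 0.296). Of the 6 helicase subunits, 5 had a value above 0, and none was called. The summed CPM was 924 ± 16.2 with 4HBP (n = 3) and 896 ± 3.19 in controls (SD, n = 2), a ratio of 1.03 without overlap (exact permutation p = 0.2, the smallest possible). Summed in TPM, the groups overlapped (exact permutation p = 0.4).

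**Figure D5:**
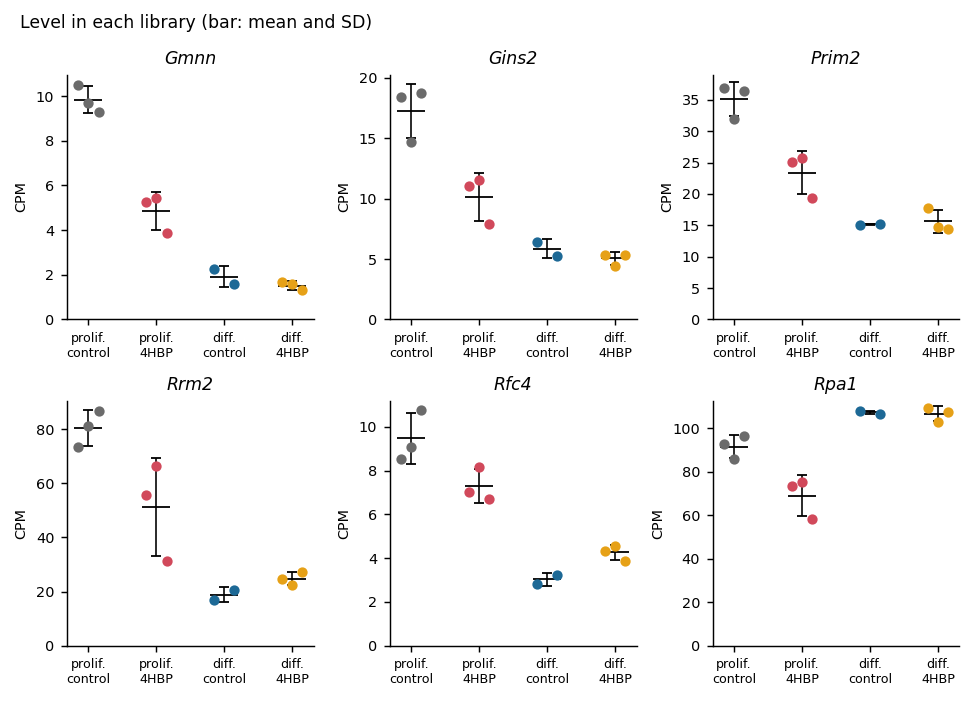
CPM of Gmnn, Gins2, Prim2, Rrm2, Rfc4 and Rpa1 in each library of the 4 groups, with bars for the mean and SD (3 libraries per group, 2 for differentiation controls). In proliferation medium each 4HBP point of these genes lies below all control points, and Rrm2 and Rfc4 lie above both controls with 4HBP in differentiation medium.

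The difference between the 4HBP effects in the 2 media was tested as an interaction. It was below 0 for 47 of the 51 genes, with a median of -0.55 on the log2 scale, beside -0.00381 over all genes. Only 1 gene, Rfc4, was called by edgeR (1.96%, against 4.49% of all 15920 genes called, 2.48% lower and 2.01% higher). Rfc4 (chr16:23113943-23127737, minus strand) was at 7.00, 8.19 and 6.72 CPM with 4HBP and at 8.55, 9.09 and 10.8 CPM in controls in proliferation medium, opposite to its order in differentiation medium. The interaction was -0.91 ± 0.22 (adjusted p = 0.0388). It was lost when any 1 of 8 of the 11 libraries was left out, with an adjusted p of up to 0.207. For Rrm2 the interaction was -1.08 ± 0.33 (adjusted p = 0.0859) and for Prim2 -0.67 ± 0.18 (adjusted p = 0.0597). DESeq2 called 3 genes lower (4.36% of all genes), edgeR without the filter on low counts 23 (3.48% of all genes), and voom with a spread for each medium 8 (3.54% of all genes).

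Other genes of the same pathways were read from lists fixed by name. Over the 4 lists 8 genes were called with 4HBP in proliferation medium, but 0 without control replicate 1, 0 without control replicate 2, 1 without 4HBP replicate 2, 4 without 4HBP replicate 1 and 5 without control replicate 3. Limma called 2 on log2(CPM+1) and 0 on log2(CPM+0.1), and 14 were called with all 11 libraries in 1 fit. In proliferation medium, of 36 further replication genes none fell and 3 rose with 4HBP (8.33% called, near the 7.43% of all genes), with a median of -0.21. Those with the largest changes were Pole4, a histone-fold subunit of polymerase epsilon, at 17.9, 20.2 and 19.4 CPM with 4HBP and at 13.4, 12.1 and 13.9 CPM in controls (0.51 ± 0.11, adjusted p = 0.0255), and Mtbp, which acts in origin firing, at 42.9, 44.3 and 47.3 CPM against 31.5, 30.4 and 38.3 CPM (0.39 ± 0.10, adjusted p = 0.0465). Both were higher without overlap, opposite in sign to the median of the 51 genes. Of 9 further deoxynucleotide genes none was called.

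De novo purine and pyrimidine synthesis, which makes the ribonucleotides that Rrm1 and Rrm2 reduce, held 17 genes, of which 3 rose with 4HBP in proliferation medium and none fell (median 0.11). The share called was 17.6%, against 7.43% of all genes. Atic, which carries out the last steps to the purine IMP, was at 87.0, 93.0 and 90.0 CPM with 4HBP and at 58.8, 55.2 and 68.3 CPM in controls (0.53 ± 0.09, adjusted p = 0.0132). Ctps, which makes CTP, was at 34.9, 41.6 and 41.1 CPM against 30.0, 28.7 and 30.7 CPM (0.36 ± 0.09, adjusted p = 0.0377). In both, every 4HBP library was above every control.

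Of the 13 E2F and RB family genes, 1 fell and 1 rose with 4HBP in proliferation medium (15.4% called, against 7.43% of all genes). E2f8, a repressor of the family, was at 14.2, 18.6 and 11.6 CPM with 4HBP and at 23.2, 24.3 and 28.4 CPM in controls, a fall without overlap (-0.81 ± 0.18, adjusted p = 0.0297). E2f5 was at 41.4, 42.9 and 43.5 CPM with 4HBP and at 35.3, 32.8 and 32.3 CPM in controls, a rise without overlap (0.32 ± 0.07, adjusted p = 0.033). E2f8 also passed the interaction test, at -1.12 ± 0.25 (adjusted p = 0.0269). In differentiation medium no gene of the 4 lists was called by edgeR as fitted here, by DESeq2 or by limma, but edgeR called 2 without the filter on low counts, 1 with the replicate number as a block and 1 without control replicate 2. An unadjusted edgeR p under 0.05 was reached there by 5 of 36, 2 of 9, 5 of 17 and 2 of 13 genes of the lists in the order above, beside 15.9% of all genes.

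Between media in controls, the same lists held both falls and rises, where 61.4% of all genes were called. Of the 36 further replication genes 27 fell and 1 rose (median -1.23), led by Uhrf1, which keeps DNA methylation after replication (-3.15 ± 0.32, adjusted p = 2.60e-06), and Top2a, which untangles the copies (-2.95 ± 0.25, adjusted p = 5.29e-07). Uhrf1 was at 59.7, 60.2 and 77.0 CPM in proliferation controls and at 8.58 and 7.17 CPM in differentiation controls, and Top2a at 227, 269 and 246 CPM against 28.1 and 39.6 CPM. Both fell without overlap.

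Of the 9 further deoxynucleotide genes 5 fell and 1 rose, a share called of 66.7% that was near that of all genes. Dck, the deoxycytidine kinase, went from 47.3, 49.8 and 48.5 CPM to 18.6 and 18.1 CPM (-1.49 ± 0.08, adjusted p = 1.12e-08). Of the 17 de novo synthesis genes 10 fell and 3 rose, with a median of -0.29. Ppat, which opens purine synthesis, fell by 0.90 from 24.3, 25.8 and 29.4 CPM to 14.2 and 15.9 CPM, and Paics by 0.77 from 271, 254 and 260 CPM to 164 and 162 CPM.

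Of the 13 E2F and RB genes 11 fell and 1 rose. Rbl1, the p107 member of the RB family, was at 27.4, 32.5 and 33.8 CPM in proliferation controls and at 6.75 and 6.61 CPM in differentiation controls (-2.31 ± 0.16, adjusted p = 7.83e-08). E2f8 fell by 2.27, from the levels above to 5.52 and 5.63 CPM (adjusted p = 5.16e-07). In each of these 7 genes the control groups did not overlap.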

How the data were processed

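Per the labels and the methods of the paper, the authors prepared stranded poly(A) libraries, trimmed the reads with cutadapt, and quantified them with RSEM 1.3.0 and Bowtie2 2.2.9 on GRCm38 (mm10) with GENCODE vM17 genes. They deposited 1 table per library with expected counts (fragments per gene after RSEM shared out those with several alignments, not normalized) and TPM (normalized for length and depth by RSEM). The FPKM column was not used. Of the expected counts above 0, 18.6% were not whole. Symbols and positions came from GENCODE vM21 of the same build by gene identifier, which named 99.7% of the genes.

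Expected counts were rounded, filtered with filterByExpr, scaled by TMM and fitted with edgeR 4.0.16 (R 4.3.3; glmQLFit, glmQLFTest), with Benjamini-Hochberg adjustment over all genes tested and a threshold of 0.05. Each 4HBP comparison was fitted within its medium, and the medium and interaction contrasts on all 11 libraries. The SE of an edgeR log2 fold change was its size divided by the square root of the quasi-likelihood F statistic. It is therefore not a measure separate from the test. CPM were expected counts scaled to the library total. Summed CPM and ratios of TPM were compared with exact two-sided permutation tests, in which the smaller tail was doubled. Promoters came from a RefSeq table. The scripts were tested on simulated counts with 200 genes changed, and no 2 libraries were alike within sampling noise. Alternatives were other scalings, DESeq2 1.42.0, limma 3.58.1 on log2(CPM+1) or log2(CPM+0.1), no filter, joint or separate fits, the replicate number as a block, and each library left out.

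CPM in every library is given for the gene of each role with the largest change between media in controls, the 5 with the smallest p in each 4HBP comparison, genes called against the direction of most, and the 2 called genes with the largest change of each further list; Orc5, Tk1 and Orc1 in the 4HBP comparison were added after their values were seen. The values of 1 gene that this rule selects are not reported here. The genes and lists were chosen with earlier results of these data known.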

Additional observations from a re-analysis of the deposited data

Results flagged for a closer look

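Rfc4 stood out because the test of the difference between its effects in the 2 media passed the threshold: its 4HBP effect in proliferation medium minus that in differentiation medium was -0.91 on the log2 scale (SE 0.22, edgeR adjusted p = 0.0388). The log2 fold change with 4HBP was -0.41 in proliferation medium and 0.50 in differentiation medium, and neither passed alone (adjusted p = 0.133 and 0.163). In each medium the 4HBP and control libraries did not overlap. Over its 18 alternatives the interaction of Rfc4 kept its sign and had an adjusted p between 0.0107 and 0.207.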

How the results depend on the processing

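In proliferation medium the count of genes called with 4HBP, 3 in the report, was 18 with DESeq2, 21 without the filter on low counts, 25 with all 11 libraries in 1 fit, 1 with limma on log2(CPM+1), 1 with log2(CPM+0.1) and 10 with the thresholds of the paper, an alternative chosen after seeing the data. Leaving out 1 library gave 0 to 10, with 0 without control replicate 1 or 2, 1 without control replicate 3 and 10 without 4HBP replicate 3. In differentiation medium the count of 1 became 0 with limma on log2(CPM+1), with log2(CPM+0.1), with all 11 libraries in 1 fit and with the thresholds of the paper, and 0 to 1 when 1 library was left out. Between media, 44 to 48 genes were called in controls and 42 to 49 with 4HBP. The median in controls was -1.44 with limma on log2(CPM+1), which adds a pseudocount and also leaves out the TMM scaling. The interaction, with 1 gene in the report, had 3 with DESeq2, 23 without the filter, 0 with limma on log2(CPM+0.1), 8 with voom and a spread for each medium, and 0 to 6 when 1 library was left out. Summed in TPM, the log2 ratios were 0.0136 for 4HBP in differentiation medium, -0.791 for the media in controls and -0.422 with 4HBP, against 0.0447, -1.19 and -0.78 in CPM. No called result changed sign. The causes of these differences were not tested.

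Replicate numbers did not pair the libraries: the correlations of same-numbered deviations were between -0.0616 and 0.0179 within media. With the replicate number as a block, 1 gene was called in proliferation medium, 1 in differentiation medium, 47 and 45 between media in controls and with 4HBP, and 1 in the interaction. Under the block Gmnn and Rrm2 kept their calls, Gins2 (adjusted p = 0.0616), Prim2 (0.054) and the interaction of Rfc4 (0.0562) lost theirs, and the gene called in the interaction was Prim2.

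With 2 or 3 libraries per group, exact tests of single values could not pass 0.05, and Orc1, Tk1, Gmnn and Pole2 had few counts in differentiation medium (11 to 49). Gins1, Cdc6 and Gins3 went as low as 29, 34 and 40 counts there.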
